A study of Mus musculus with 24 samples.

Results

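The comparison of MS2 with Con asked which hippocampal mRNAs differed between mouse pups given morphine at 2 mg/kg with stress and untreated pups. It rested on 10 of the 24 arrays of the series, namely the 5 Con and the 5 MS2 arrays of the mRNA platform, chosen by their labels, and it covered 55681 non-control probes. All pups were C57BL/6 males killed on P9 (postnatal day 9), and both hippocampi of a pup were pooled. MS2 pups had received morphine injections, maternal separation and simulated apnea with nitrogen and oxygen, whereas Con pups were housed normally with minimal handling. Neither group received morphine or stress alone, so the parts of morphine and of stress cannot be told apart. The labels do not state the litter of each pup, so the p values measure the spread between these arrays.

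The hippocampus is built from glutamatergic principal neurons of the dentate gyrus and of fields CA1 to CA3, together with interneurons, glia and vessels, and in the mouse it is still adding neurons and myelin in the second postnatal week. Morphine acts mainly through the mu opioid receptor, a receptor coupled to inhibitory G proteins that lower cyclic AMP. Maternal separation raises glucocorticoids, whose receptor switches on genes such as Fkbp5 and Sgk1, and low oxygen stabilizes the transcription factor Hif1a. The p values of single probes come from the limma fit over all probes and are given before adjustment unless called exact. Levels below are normalized log2 intensities, on which a difference of 1 is a doubling, and levels of different probes are not compared.

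The labelled tissue was first set against its markers. Neurod6, a transcription factor of hippocampal and cortical pyramidal neurons, had levels of 13.75, 13.78, 13.73, 13.79 and 13.32 in Con replicates 15 to 19 and of 13.68, 13.89, 10.02, 13.41 and 13.65 in MS2 replicates 1, 3, 4, 5 and 7, the order used throughout. Slc17a7, the vesicular glutamate transporter of hippocampal and cortical principal neurons, was at 12.15 to 12.66 on 9 arrays and at 9.38 on MS2 replicate 4. Both genes were thus far lower on this 1 array than on any other.

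Genes of the hypothalamus, thalamus and midbrain ran the opposite way. Pmch, the melanin-concentrating hormone precursor of the lateral hypothalamus, was at 13.33 on MS2 replicate 4 and between 5.99 and 7.12 elsewhere. Hcrt, the orexin precursor, was at 12.31 there and between 7.92 and 8.45 elsewhere. Slc6a3, the dopamine transporter of midbrain neurons, was at 12.36 against 7.67 to 8.19. Gata3, a transcription factor of midbrain and hindbrain neurons, was at 11.78 against 6.59 to 6.98, and Pou4f1, which marks the habenula, was at 10.68 against 6.57 to 6.84. Neurod6 and Pmch were picked for having some of the lowest p of their lists in these data. The other genes given so far were chosen after their values were seen.

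Averaged over 20 genes of hippocampal principal neurons, the mean log2 level was 10.54 on MS2 replicate 4 and between 12.23 and 12.50 on the other 9 arrays. Averaged over 28 genes of the hypothalamus and thalamus, it was 9.91 against 7.97 to 8.38. Prox1, the marker of dentate granule cells, was at 9.43 on MS2 replicate 4, beside 9.47 on Con replicate 19 and up to 10.60 elsewhere. MS2 replicate 4 therefore went against its tissue label for most principal neuron markers, although none of the 20 genes fell below background. On that array 1406 of the 39639 probes well above background differed by over 2-fold from the mean of the other 9, compared with 15 to 143 probes on each other array.

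A second set of arrays stood apart for striatal genes. The mean over 12 striatal genes was 12.11 on Con replicate 19 and 12.22 on MS2 replicate 5, and between 9.97 and 10.36 on the other 8 arrays. Drd2, the dopamine D2 receptor of striatal projection neurons, was at 7.97 and 8.12 on these arrays and between 6.74 and 7.48 on the rest. MS2 replicate 5 was also dim, with a median spot signal of 51.0 and 64.1% of spots well above background, against 100 to 128 and 71.5% to 76.3% on the other Con and MS2 arrays. Results below are given with and without MS2 replicate 4, and where it mattered without all 3 of these arrays.

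**Figure D1:**
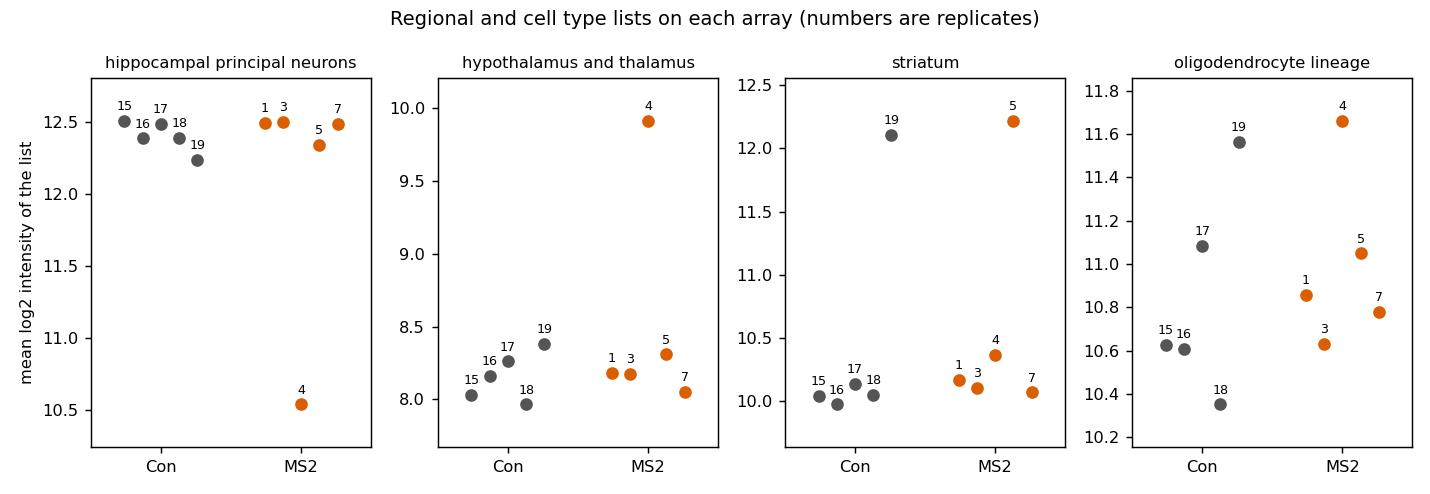
Mean log2 intensity (y axis) of 4 gene lists on each Con and MS2 array (x axis), with 1 point per array labelled by its replicate number (lists for hippocampal principal neurons, hypothalamus and thalamus, striatum and oligodendrocyte lineage). MS2 replicate 4 was lowest for hippocampal principal neurons (10.54) and highest for hypothalamus and thalamus (9.91), and Con replicate 19 and MS2 replicate 5 were highest for striatum.

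The threshold of the study's methods, a change past 1.5-fold and p under 0.05 before adjustment, was passed by 13 probes, 0.0233% of those tested. Of these 9 had a higher level in MS2 (0.0162%) and 4 had a lower one (0.00718%). The smallest Benjamini-Hochberg adjusted p was 0.970 (limma), so 0 probes (0%) passed at 0.05. Before adjustment 2324 of the 55681 probes were under 0.05 (limma), with 1141 up and 1183 down in MS2. That share was below 0.05, the share that probes without any difference would give on average. The probes higher in MS2 included those of Fam13c, Copg2as2, AK157781, Pdzd2, Npnt, the transcript ENSMUST00000106219 and 2 lincRNAs (long intergenic noncoding RNAs), and those lower were Gpnmb, Zeb2, St18 and Spp1. Without MS2 replicate 4 the count was 9 probes, again 0.0162%, with 7 higher and 2 lower, and 4 of them were among the 13. Without the 3 arrays it was 8, of which 1 was among the 13. The arrays came from 2 slides, with Con replicates 15, 17 and 18 and MS2 replicates 1, 3 and 7 on the first and the others on the second. All 13 probes had the same direction within each slide, and 12 of them had the wider difference within the second, which holds MS2 replicate 4.

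The 4 probes called both with and without MS2 replicate 4 were those of Spp1, Gpnmb, Fam13c and a lincRNA of chromosome 14. The other 9 kept their direction, yet their differences moved toward 0. Zeb2, a transcription factor that guides interneuron and glial development, had levels of 10.84, 11.28, 10.94, 11.12 and 11.29 in Con and 10.66, 10.69, 8.97, 10.71 and 10.74 in MS2. Its log2 difference was -0.74 ± 0.29 (SE, unadjusted p = 0.0228; exact permutation p = 0.00794) and -0.39 (unadjusted p = 0.0187) without replicate 4, and in both cases the MS2 arrays lay wholly below the Con arrays. The other Zeb2 probe had a difference of -0.50 (unadjusted p = 0.106), and of -0.14 (unadjusted p = 0.269) without replicate 4.

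St18, a zinc finger transcription factor, was at 9.68, 9.93, 9.73, 9.89 and 9.83 in Con and 9.55, 9.47, 7.80, 8.92 and 9.56 in MS2. Its difference was -0.75 ± 0.26 (SE, unadjusted p = 0.0104; exact permutation p = 0.00794), and -0.44 (unadjusted p = 0.00175) without replicate 4. The groups did not overlap, and with all 3 arrays left out the difference was -0.28 (unadjusted p = 0.00346).

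The probes of Pdzd2, a PDZ domain protein, Copg2as2, an antisense transcript of Copg2, and AK157781 were highest on replicate 4. Their differences of 0.62, 0.63 and 0.63 became 0.32 (unadjusted p = 0.0964), 0.34 (unadjusted p = 0.0505) and 0.35 (unadjusted p = 0.0455). Other Pdzd2 probes had smaller differences of 0.14 and 0.09.

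Npnt, an extracellular matrix ligand of integrin alpha 8 beta 1, had a difference of 0.61 (unadjusted p = 0.0180), and 0.43 (unadjusted p = 0.0511) without replicate 4. Its other probe was at 0.25 (unadjusted p = 0.114). Fam13c was higher by 0.66 ± 0.24 (SE, unadjusted p = 0.0145), with levels of 8.69, 9.40, 8.78, 8.07 and 8.26 in Con and 8.72, 9.17, 9.51, 9.89 and 9.19 in MS2. The groups overlapped, a second Fam13c probe went the other way (-0.28, unadjusted p = 0.0610), and without the 3 arrays the first had a difference of 0.29 (unadjusted p = 0.254).

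The transcript ENSMUST00000106219 was at 9.64, 9.38, 9.19, 9.45 and 9.22 in Con and 9.86, 9.90, 10.43, 9.92 and 9.78 in MS2. The groups did not overlap, and the difference was 0.60 ± 0.14 (SE, unadjusted p = 0.000575), 0.49 (unadjusted p = 0.00102) without MS2 replicate 4 and 0.43 (unadjusted p = 0.00915) without the 3 arrays. The called probe of a chromosome 5 lincRNA differed by 0.59 (unadjusted p = 0.0198), and its groups overlapped. Its difference was 0.54 (unadjusted p = 0.0413) without replicate 4 and 0.36 (unadjusted p = 0.133) without the 3 arrays. The probe adjoining it had only 0.13 (unadjusted p = 0.283). All other probes of this lincRNA lay between -0.13 and 0.13, so the difference was seen at 1 probe only.

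**Figure D2:**
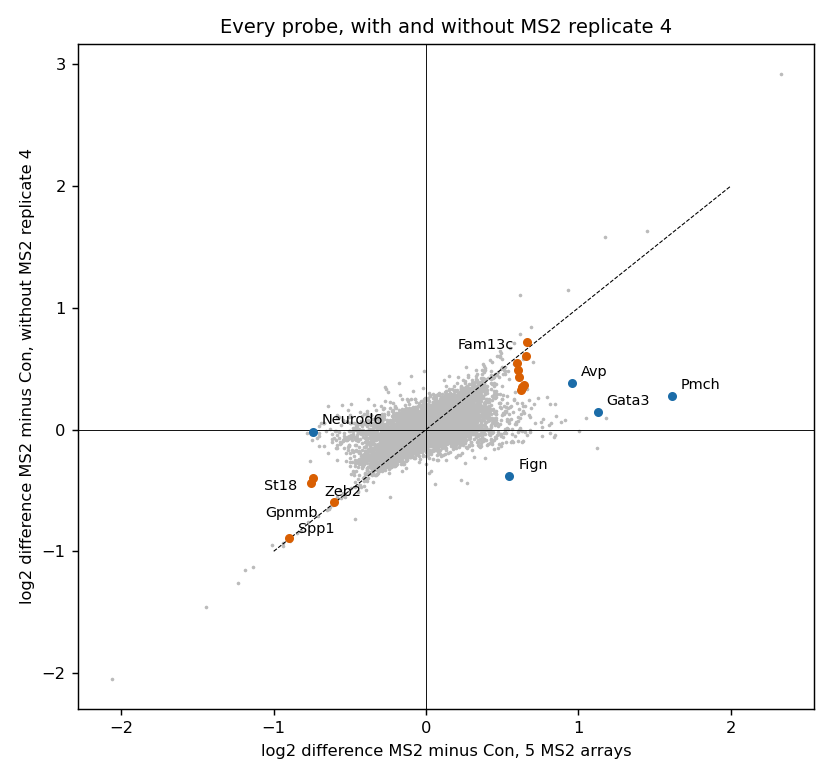
Log2 difference MS2 minus Con for every probe with all 5 MS2 arrays (x axis) and without MS2 replicate 4 (y axis), with the 13 probes past the threshold in orange, 5 further genes in blue and equality as a dashed line. Spp1 and Gpnmb lie on the line, whereas Zeb2, St18, Pmch, Gata3 and Neurod6 lie closer to 0 on the y axis.

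The Spp1 and Gpnmb genes are expressed, among other cells, by phagocytic microglia, the brain's resident macrophages, which in early postnatal life gather in developing white matter and also express Itgax, Clec7a and Cst7. Spp1 encodes osteopontin, a secreted adhesion protein. Its probe (mm9 chr5:104868502-104868561) had levels of 7.88, 8.89, 7.66, 8.41 and 9.59 in Con and 7.95, 7.55, 7.57, 7.10 and 7.76 in MS2. Con replicates 16, 18 and 19 lay above every MS2 array, and Con replicates 15 and 17 lay among them. The difference was -0.90 ± 0.32 (SE, unadjusted p = 0.0128; exact permutation p = 0.0397), and -0.89 (unadjusted p = 0.0207) without MS2 replicate 4.

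Gpnmb, a transmembrane glycoprotein of lysosomes (mm9 chr6:49006386-49006445), was at 6.88, 7.19, 6.86, 7.12 and 8.24 in Con and 6.58, 6.62, 6.63, 6.63 and 6.82 in MS2. Every MS2 array lay below every Con array, as was the case at 0.393% of all probes, with all MS2 arrays above Con at 0.309%. Of the 252 assignments of these arrays, 1 separates the groups fully in a given direction. Neither share therefore exceeded what random assignment gives. The difference was -0.60 ± 0.19 (SE, unadjusted p = 0.00730; exact permutation p = 0.00794, the smallest that 5 arrays against 5 allow). Without Con replicate 19, the highest array, it was -0.36 (unadjusted p = 0.000255), below 1.5-fold.

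Itgax, the integrin chain CD11c, had levels of 6.80, 7.14, 6.47, 7.22 and 8.00 in Con and 6.65, 6.59, 6.30, 6.60 and 6.67 in MS2, with a difference of -0.57 ± 0.20 (SE, unadjusted p = 0.0134; exact permutation p = 0.0476). Clec7a, the beta-glucan receptor dectin-1, differed by -0.53 (unadjusted p = 0.0106) and Cst7, the protease inhibitor cystatin F, by -0.14 (unadjusted p = 0.0243). The Cst7 probe, with means of 6.29 in Con and 6.15 in MS2, was well above background on 5 Con and 4 MS2 arrays. Clec7a and Cst7 were chosen after their values were seen, as were 10 further genes of such cells, of which 0 passed p under 0.05 and Apoe (0.00), Cd63 (-0.04), Ctsb (0.03) and Fabp5 (0.03) had differences near 0. Without the 3 arrays Gpnmb (-0.34, unadjusted p = 0.00203) and Clec7a (-0.36, unadjusted p = 0.0173) still passed p under 0.05, while Spp1 (-0.45, unadjusted p = 0.151), Itgax (-0.27, unadjusted p = 0.0805) and Cst7 (-0.06, unadjusted p = 0.270) did not.

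Within the first slide the differences were -0.23 for Spp1, -0.28 for Gpnmb, -0.20 for Itgax and -0.29 for Clec7a, and within the second they were -1.91, -1.08, -1.12 and -0.89. The direction was the same on both slides and the size was not. Con replicate 19, highest for all 5 genes, also had a mean oligodendrocyte list level of 11.56, against 10.35 to 11.08 on the other Con arrays. MS2 replicate 4, which went against its tissue label for most principal neuron markers, had 11.66 with Spp1 at 7.57. The part of white matter content was not tested. In bulk RNA, fewer cells of a type and less RNA per cell cannot be told apart. Of 20 general microglial genes 1 fell and 0 rose at an unadjusted p under 0.05, with a median difference of -0.06. The 1 that fell was Itgax itself, already given above. Over all genes, with 1 probe per gene, 2.31% were lower at this threshold.

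**Figure D3:**
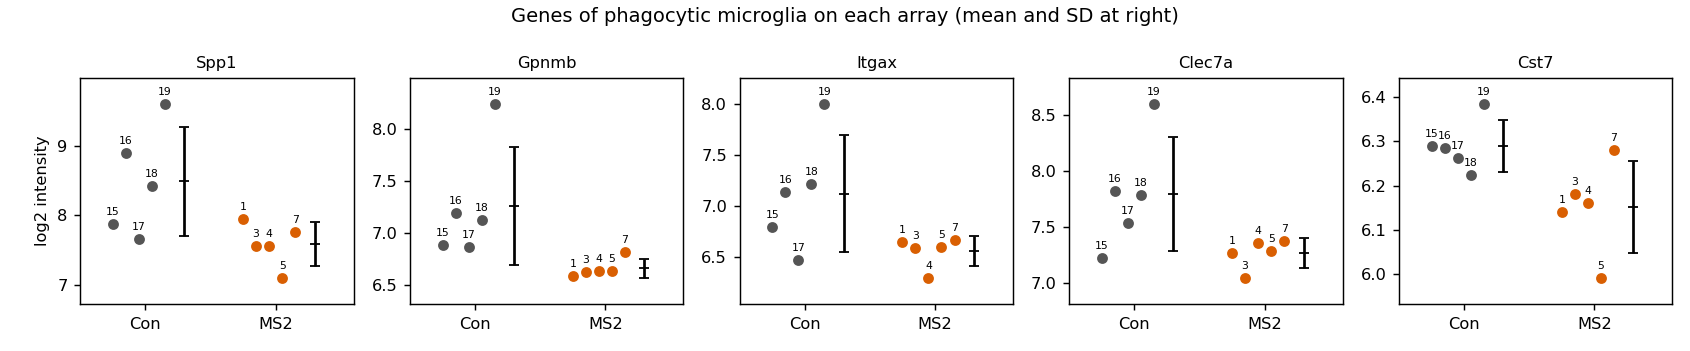
Log2 intensity (y axis) of Spp1, Gpnmb, Itgax, Clec7a and Cst7 on each Con and MS2 array (x axis), labelled by replicate, with the mean and SD (n = 5) at the right of each group. Con replicate 19 is the highest array for all 5 genes, and for Gpnmb every MS2 array lies below every Con array.

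The promoters of Spp1 and Gpnmb are shown because these probes were lower both with and without MS2 replicate 4. They span 300 bases around the first start listed by RefSeq (GRCm38.p6), most of them before it, at chr5:104434861-104435160 and chr6:49036268-49036567, both on the plus strand. Capitals mark GAGGAA on either strand, a core of sites bound by the myeloid factor PU.1.
Spp1: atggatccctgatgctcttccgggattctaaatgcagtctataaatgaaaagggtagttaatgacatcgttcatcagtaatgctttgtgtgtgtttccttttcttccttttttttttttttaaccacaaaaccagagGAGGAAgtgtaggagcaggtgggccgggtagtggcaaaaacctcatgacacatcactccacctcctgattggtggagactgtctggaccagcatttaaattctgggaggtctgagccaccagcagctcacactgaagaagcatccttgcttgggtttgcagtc
Gpnmb: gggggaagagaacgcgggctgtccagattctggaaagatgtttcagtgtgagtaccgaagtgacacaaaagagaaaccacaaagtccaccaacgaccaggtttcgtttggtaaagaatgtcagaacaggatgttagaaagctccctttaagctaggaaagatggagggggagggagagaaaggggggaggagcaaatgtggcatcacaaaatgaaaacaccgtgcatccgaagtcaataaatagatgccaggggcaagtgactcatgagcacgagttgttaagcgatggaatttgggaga
The motif stood once in the Spp1 window and once in that of Clec7a, and it was not found in those of Gpnmb, Itgax or Cst7. It occurs in 28.3% of 32851 promoter windows.

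The lincRNA of chromosome 14 was the probe with the highest log2 difference among the 13. The array carries 3 probes for it, all from the plus strand, and all were higher in MS2. The nearest probe of a named gene, for the muscle protein gene Myoz1 on the other strand, lay 6222 bases away and had a difference of 0.00. The probe sequences are shown because they are what the values measure (mm9 chr14:21462202-21462261, chr14:21461836-21461895 and chr14:21461896-21461955).
chr14 lincRNA probe 1: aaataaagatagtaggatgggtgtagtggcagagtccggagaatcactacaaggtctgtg
chr14 lincRNA probe 2: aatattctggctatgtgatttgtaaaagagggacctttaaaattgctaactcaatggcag
chr14 lincRNA probe 3: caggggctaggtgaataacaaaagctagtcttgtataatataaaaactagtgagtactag
Probe 1 was at 8.42, 8.46, 8.78, 7.79 and 8.33 in Con and 9.10, 9.00, 8.79, 9.07 and 9.13 in MS2. Its difference was 0.66 ± 0.20 (SE, unadjusted p = 0.00538; exact permutation p = 0.00794), 0.72 (unadjusted p = 0.00479) without MS2 replicate 4 and 0.71 (unadjusted p = 0.0188) without the 3 arrays, and 0.75 and 0.54 within the slides. Probe 2 differed by 0.30 (unadjusted p = 0.00609) and probe 3 by 0.21 (unadjusted p = 0.0425). For probes 1 and 2 every MS2 array lay above every Con array, and the smallest gap was at MS2 replicate 4.

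A lincRNA of chromosome 6, on the minus strand 1893 bases or more from the nearest probe of Ndufa9, had 5 probes, all positive. Ndufa9 lies on the same strand and had a difference of -0.06 (unadjusted p = 0.293). Whether the lincRNA is separate from the Ndufa9 transcript was not tested. This lincRNA and those of chromosomes 2 and 17 were chosen after their values were seen. Its leading 2 probes adjoin each other (mm9 chr6:126769984-126770043 and chr6:126770044-126770103).
chr6 lincRNA probe 1: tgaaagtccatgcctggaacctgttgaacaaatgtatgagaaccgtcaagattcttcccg
chr6 lincRNA probe 2: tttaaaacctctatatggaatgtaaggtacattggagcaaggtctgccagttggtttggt
Probe 1 was at 6.96, 7.14, 7.16, 6.81 and 6.90 in Con and 7.44, 7.19, 7.17, 7.69 and 7.97 in MS2, a difference of 0.50 ± 0.18 (SE, unadjusted p = 0.0154). Probe 2 differed by 0.42 (unadjusted p = 0.0127). Both had non-overlapping groups, 1 more of the 5 probes passed p under 0.05 (0.26, unadjusted p = 0.0106) and the remaining differences were 0.15 and 0.13. Of 3 probes of a chromosome 17 lincRNA, by contrast, all were lower, by -0.37 (unadjusted p = 0.000711), -0.38 (unadjusted p = 0.00712) and -0.25 (unadjusted p = 0.0578).

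Without MS2 replicate 4, 4 of the 9 called probes belonged to a lincRNA of chromosome 2 on the minus strand, in the imprinted Gnas region, whose nearest named probes were Nespas and Gnas. Gnas encodes the stimulatory G protein alpha subunit and Nespas is an antisense RNA of the locus. Its 4 probes nearest each other had differences of 0.46 to 0.55 with all arrays (p from 0.0760 to 0.118 over these) and 0.60 to 0.67 without replicate 4, while 2 probes further along it had -0.02 and 0.10. The probe with the highest of these (mm9 chr2:174098155-174098214) had levels of 9.09, 8.32, 8.72, 8.36 and 8.69 in Con and 9.26, 8.61, 8.69, 9.60 and 9.77 in MS2.
chr2 lincRNA probe: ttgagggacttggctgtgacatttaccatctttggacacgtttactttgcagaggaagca
The groups overlapped, since MS2 replicates 3 and 4 lay within the Con range. Nespas (0.00), on the same strand as this lincRNA, and Gnas (0.05), on the other strand, themselves had differences near 0. The remaining probe called without replicate 4, of a chromosome 8 lincRNA, was well above background on 0 Con and 2 MS2 arrays.

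**Figure D4:**
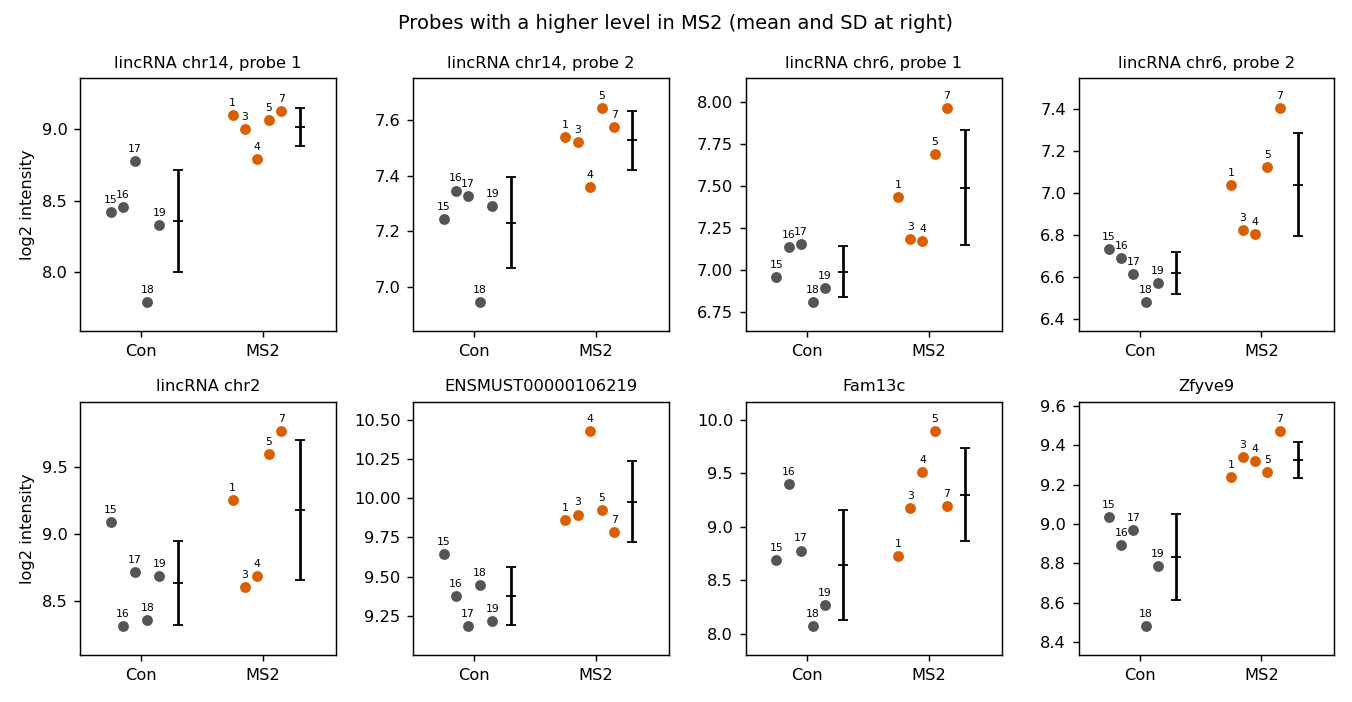
Log2 intensity (y axis) of 8 probes higher in MS2 on each Con and MS2 array (x axis), labelled by replicate, with the mean and SD (n = 5) at the right of each group. The MS2 arrays lie wholly above the Con arrays for both chr14 and both chr6 probes, ENSMUST00000106219 and Zfyve9, and overlap for the chr2 lincRNA and Fam13c.

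Among well-measured probes with a gene symbol, which leaves out lincRNAs and unnamed transcripts, and with non-overlapping groups, those with the highest differences were of Vapb and Zfyve9. Vapb anchors lipid-transfer proteins at the endoplasmic reticulum. It was at 12.09, 11.97, 12.16, 11.81 and 12.12 in Con and 12.41, 12.22, 12.47, 12.56 and 12.97 in MS2, a difference of 0.50 ± 0.17 (SE, unadjusted p = 0.00926), but its second probe was at 0.19 (unadjusted p = 0.164). Zfyve9 (SARA) presents SMAD proteins to the TGF-beta receptor. Its difference of 0.49 ± 0.11 (SE, unadjusted p = 0.000511) was 0.50 (unadjusted p = 0.00105) without MS2 replicate 4, and 0.52 and 0.45 within the slides.

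The 8 further probes were of Cntnap2, a neurexin-like axonal protein (0.37), Gm5567, now Tmem178b (0.36, unadjusted p = 0.000124), Tmem132d (0.36), Col25a1, a transmembrane collagen (0.34), Sfxn5, a mitochondrial carrier (0.33), the kinase Mapk9, or JNK2 (0.31), Cacng7, an AMPA receptor auxiliary subunit (0.29, unadjusted p = 0.000111), and the cytolinker Dst (0.28). Other probes of Cntnap2, Col25a1, Sfxn5, Mapk9, Cacng7 and Dst had smaller differences, the highest of them 0.17 for Cntnap2. A second Tmem132d probe had 0.33 (unadjusted p = 0.0538). Without MS2 replicate 4 Col25a1 had 0.19 (unadjusted p = 0.0887) and the other 7 passed p under 0.05. The probes were picked for non-overlapping groups, which leaving out an array cannot undo. Their p values without replicate 4 are therefore no independent check. None of the 8 was called after adjustment.

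The lowest such probes began with St18, Zeb2 and Gpnmb. Slc16a6, a monocarboxylate transporter family member, was at 7.42, 7.63, 7.54, 7.96 and 7.65 in Con and 7.26, 7.41, 7.11, 7.06 and 6.90 in MS2. Its difference was -0.49 ± 0.14 (SE, unadjusted p = 0.00351), and -0.48 (unadjusted p = 0.00706) without replicate 4, whereas its brighter probe had -0.12 (unadjusted p = 0.326). The small GTPase Rasl11a (-0.44), the ciliary transport protein Ttc26 (-0.37), Cdk17 (-0.36), Gng10, a G protein gamma subunit (-0.35), and Sh3bgrl (-0.34) followed. These 5 differences lay between -0.22 and -0.28 without replicate 4, and each p stayed under 0.05. The lowest probes too were picked for non-overlapping groups, so these p values are no independent check either. A second Ttc26 probe had a difference of -0.02 (unadjusted p = 0.821).

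With 1 probe per gene, 1.72% of 36163 genes were higher and 2.31% lower at an unadjusted p under 0.05, and the median difference over all genes was 0.00. Without MS2 replicate 4 the shares were 1.84% and 1.87%. In the gene lists below, rose and fell mean that this threshold was passed. Of the 8 opioid receptor and peptide genes, 0 rose and 0 fell. Oprm1, the mu receptor, was at 6.22, 6.20, 6.21, 6.12 and 6.28 in Con and 6.27, 6.23, 6.61, 6.23 and 6.26 in MS2, a difference of 0.12 ± 0.09 (SE, unadjusted p = 0.206), and of 0.04 without replicate 4. That array was the highest, and this probe was well above background on 4 of the arrays of each group. A second Oprm1 probe, well above background on all arrays of both groups, had means of 16.05 in Con and 16.22 in MS2. Its difference was 0.17 (unadjusted p = 0.162), and 0.15 without replicate 4. The first probe lies at mm9 chr10:3516154 and the second at chr10:3308332. Whether the second, so much brighter, reads the mu receptor mRNA was not tested.

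The delta receptor Oprd1 differed by 0.15 (unadjusted p = 0.0656). The kappa receptor Oprk1 differed by 0.46 ± 0.45 (SE, unadjusted p = 0.332), with levels of 7.29, 7.23, 7.50, 7.30 and 8.40 in Con and 7.44, 7.29, 9.58, 8.47 and 7.22 in MS2, and by 0.06 without replicate 4. The nociceptin receptor Oprl1 (0.18), the enkephalin precursor Penk (0.20), the dynorphin precursor Pdyn (-0.20), Pomc (0.04) and the nociceptin precursor Pnoc (0.14) had p between 0.210 and 0.822. Without replicate 4 Oprl1 had 0.02 and Pnoc -0.12, so the direction of Pnoc turned. Penk was at 14.85 on Con replicate 19 and 15.15 on MS2 replicate 5, and between 11.51 and 12.68 elsewhere. Those 2 arrays were also the ones high for striatal genes.

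Downstream of the receptors, 1 of 33 genes of inhibitory G proteins, RGS proteins, receptor kinases and beta-arrestins rose and 2 fell. Beta-arrestin 2, Arrb2, was higher by 0.12 (unadjusted p = 0.0328), Gnb5 lower by -0.23 (unadjusted p = 0.0453) and the inhibitory alpha subunit Gnai3 lower by -0.21 (unadjusted p = 0.0491). Without replicate 4, 0 of the 33 passed. Among 22 genes of adenylyl cyclases, protein kinase A and CREB, the coactivator Crebbp rose by 0.24 (unadjusted p = 0.0389) and 0 fell, and without replicate 4 its p was 0.0915.

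Of 24 immediate early genes, which neurons switch on within minutes of activity, 3 fell and 0 rose. They were the antiproliferative gene Btg2 (-0.33, unadjusted p = 0.0111), Fosl1 (-0.09, unadjusted p = 0.0224) and Atf3 (-0.15, unadjusted p = 0.0365), and 3 also fell without replicate 4. The Fosl1 probe was well above background on 5 Con and 4 MS2 arrays. Fos (0.05, unadjusted p = 0.575), Arc (-0.35, unadjusted p = 0.166) and Egr1 (-0.50, unadjusted p = 0.163) were not called. The median of the list was -0.10, and -0.02 without replicate 4.

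Of 26 glucocorticoid response genes, the MAP kinase phosphatase Dusp1 fell and 0 rose. Dusp1 was at 9.49, 9.37, 9.61, 9.61 and 9.76 in Con and 9.37, 9.07, 8.98, 9.36 and 9.42 in MS2. It differed by -0.33 ± 0.10 (SE, unadjusted p = 0.00477), and by -0.26 (unadjusted p = 0.0137) without replicate 4. Fkbp5 (0.04), Sgk1 (0.02) and Per1 (-0.01) had differences near 0. Without replicate 4, 2 genes of the list rose beside the fall of Dusp1. They were Ddit4, an mTORC1 inhibitor, at 0.30 (unadjusted p = 0.0371), against 0.26 (unadjusted p = 0.0511) with all arrays, and the metallothionein Mt1 at 0.22 (unadjusted p = 0.00597), against 0.11 (unadjusted p = 0.273). Of 25 hypoxia response genes 0 rose and 0 fell, with Hif1a at -0.20 (unadjusted p = 0.0868), -0.29 (unadjusted p = 0.00631) without replicate 4 and 0.15 on its other probe, Vegfa at 0.06 and Bnip3 at 0.05.

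Of 31 genes of the cell cycle and DNA replication, 4 fell and 0 rose, with a median of -0.10 that was also -0.10 without replicate 4. On single arrays the list mean ran from 10.15 to 10.48 in Con and from 10.08 to 10.28 in MS2. The groups thus overlapped, and Con replicate 19 was the highest array. Bub1b, a mitotic checkpoint kinase, was at 8.74, 8.92, 8.70, 8.81 and 8.89 in Con and 8.52, 8.64, 8.34, 8.57 and 8.62 in MS2. It differed by -0.27 ± 0.07 (SE, unadjusted p = 0.00138), the groups did not overlap, and it differed by -0.22 (unadjusted p = 0.00359) without replicate 4. The replication helicase subunits Mcm7 (-0.26, unadjusted p = 0.00731) and Mcm2 (-0.18, unadjusted p = 0.0449) and the kinase Cdk2 (-0.20, unadjusted p = 0.0249) were the others, and without replicate 4 Mcm2 had a p of 0.128.

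Of 77 cytosolic ribosomal protein genes 5 fell and 0 rose, among them Rpl5 (-0.11, unadjusted p = 0.0164), and 7 had a positive difference. The differences were small, from -0.13 to 0.06, and without replicate 4 only 1 fell. Of 77 respiratory chain genes, the acyl carrier Ndufab1 fell (-0.21, unadjusted p = 0.0102) and 0 rose. Among 26 glutamate receptor genes the AMPA receptor subunit Gria2 fell (-0.26, unadjusted p = 0.0404), with another probe at -0.10 (unadjusted p = 0.357), and 0 rose. Without replicate 4 Gria2 was at -0.22 (unadjusted p = 0.0923), so 0 fell, and the NMDA receptor subunit Grin2b rose (0.36, unadjusted p = 0.0380), against 0.13 (unadjusted p = 0.556) with all arrays. Of 16 GABA-A receptor subunits none rose or fell (limma, 0 at p under 0.05).

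Of 17 genes of immature neurons 0 rose and 0 fell, with Dcx, the neuroblast marker, at -0.35 (unadjusted p = 0.0913) and -0.17 without replicate 4. Of 28 interferon and cytokine genes Il10 fell (-0.09, unadjusted p = 0.0224), but it was well above background on 1 Con array and on 0 MS2 arrays. Of 20 endothelial genes Ly6a rose (0.22, unadjusted p = 0.0242) and the tight junction gene Ocln fell (-0.33, unadjusted p = 0.0196), but without replicate 4 Ocln was at -0.22 (unadjusted p = 0.0511). In the 10 lists for hippocampal principal neurons, choroid plexus, ependyma, meninges, blood, striatum, hypothalamus and thalamus, interneurons, astrocytes and oligodendrocytes 0 genes rose and 0 fell. Without replicate 4 the astrocyte glutamate transporter Slc1a2 rose (0.44, unadjusted p = 0.0123), against 0.15 (unadjusted p = 0.571) with all arrays.

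The medians of several regional lists moved with 1 array. That of hippocampal principal neurons was -0.30 with all arrays and 0.05 without MS2 replicate 4, that of the hypothalamus and thalamus 0.28 and 0.00, and that of the oligodendrocyte lineage 0.15 and close to 0. Ependymal genes had -0.34 and -0.16, and choroid plexus genes -0.21 and -0.13. On single arrays the choroid plexus mean ran from 10.42 to 11.30 in Con and from 10.44 to 11.03 in MS2, so the groups overlapped.

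**Figure D5:**
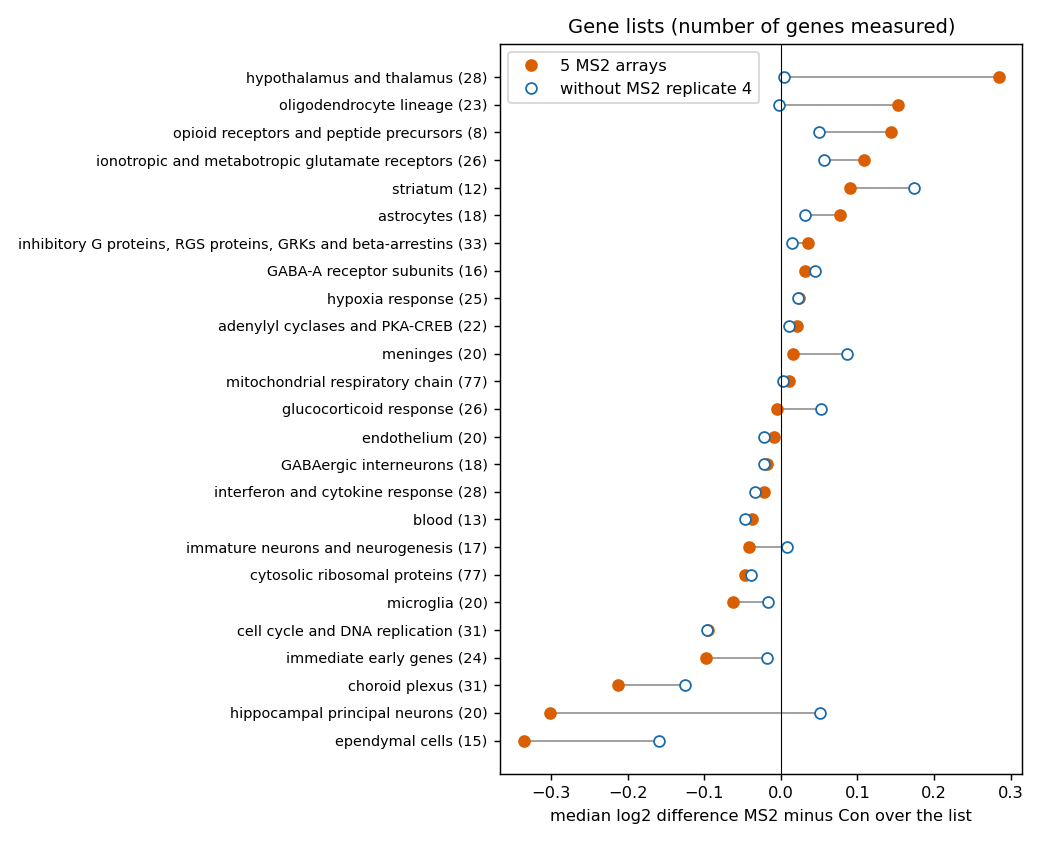
Median log2 difference MS2 minus Con (x axis) over the measured genes of each list (y axis, number of genes in parentheses) with all 5 MS2 arrays (filled) and without MS2 replicate 4 (open). Hippocampal principal neurons moved from -0.30 to 0.05 and hypothalamus and thalamus from 0.28 to 0.00.

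The study singles out Avp and Fign for the MS5 group, given the higher morphine dose, against control. No MS2 array enters that difference. The study marks neither gene as changed in MS2, and its MS2 value for Fign is negative. In MS2 against Con as computed here, the differences of both genes also depended on MS2 replicate 4. Avp, the vasopressin precursor, was at 7.36, 8.18, 7.06, 6.32 and 7.64 in Con and 7.78, 7.27, 10.58 and 8.73 in MS2 replicates 1, 3, 4 and 5, with MS2 replicate 7 inside the Con range. Its difference was 0.96 ± 1.04 (SE, unadjusted p = 0.371), and 0.38 without replicate 4. Fign, a microtubule-severing enzyme, was at 12.57 on MS2 replicate 4 and between 7.72 and 9.43 elsewhere, so its difference of 0.55 (unadjusted p = 0.485) became -0.38 (unadjusted p = 0.292). Trh, the thyrotropin-releasing hormone precursor, which was chosen after its values were seen, had 0.64 (unadjusted p = 0.457) and -0.10. Defb35, a beta-defensin, was lower by -0.31 (unadjusted p = 0.0381), and by -0.21 (unadjusted p = 0.110) without replicate 4, while Defb11 (-0.33), Aqp1 (0.14), Calml4 (-0.41), Cldn2 (-0.25) and Retnla (0.42) had p between 0.425 and 0.823.

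The widest differences did not belong to the probes that passed. Of 125 probes past 1.5-fold at any p, 13 had a p under 0.05, and without replicate 4 37 probes were past 1.5-fold. Pmch had 1.61 (unadjusted p = 0.137), and 0.28 without replicate 4, and the laminin gene Lama2 had 1.17 (unadjusted p = 0.245) and 1.58. The MS5 group was compared with the same Con arrays, and beside MS2 its means were 7.76 ± 0.44 (SD, n = 5) for Spp1, 6.63 ± 0.07 for Gpnmb and 6.47 ± 0.11 for Itgax, against 7.59 ± 0.32, 6.66 ± 0.09 and 6.56 ± 0.15 in MS2 and 8.49 ± 0.78, 7.26 ± 0.57 and 7.13 ± 0.57 in Con.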

How the data were processed

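Expression was read on single-colour Agilent arrays from 5 Con, 5 MS2 and 5 MS5 pups, where MS5 (morphine at 5 mg/kg with the same stress) entered only the shared estimate of spread and means given beside MS2. The authors deposited scanner files with the intensity of each spot and a table of log2 values. That table matches normexp background adjustment of the mean signal at an offset of 50 with quantile normalization, first spot of each probe (largest difference 5e-09). GEO's processing notes name RMA for the series. The deposited log2 values were used as they stand.

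R 4.3.3 and limma 3.58.1 were used, with figures drawn in matplotlib 3.10.9. Of 62976 spots per array, 55681 non-control probes were tested in 1 limma fit of 3 groups, contrast MS2 minus Con, with Benjamini-Hochberg adjustment. The methods' threshold was 1.5-fold with an unadjusted p under 0.05. For lists each gene was represented by 1 probe, taking those named A_51 or A_52, the brightest of several, and otherwise the brightest. Exact permutation tests were two-sided over 252 assignments. Named genes were all probes past the threshold, the 10 highest and 10 lowest well-measured probes with a gene symbol (no lincRNA or unnamed transcript) and non-overlapping groups, the opioid genes, the 4 genes with the lowest p of each list, and 9 genes the study singles out (Defb35, Itgax, Defb11, Aqp1, Calml4, Cldn2, Fign, Avp and Retnla). The genes, lists and tests were chosen with earlier results of these data known. The alternatives were averaged spots, no normexp offset, processed signals from the scanner scaled at percentile 75, array weights, a filter on dim probes, only Con and MS2 arrays, the slide, exact tests, other probes per gene and leaving out each array. Leaving out several arrays at once was chosen after seeing the data. Genes are named by the array's symbols and positions are mm9 as in the scanner files. Some probes that met the rule for named genes are not reported here. The number of arrays limits the precision. On simulated data for MS2 against Con over 55821 probes, 37 of 50 probes changed 1.5-fold and 47 of 50 changed 2-fold passed an adjusted p under 0.05. The simulation drew independent normal noise for each probe and changed only probes above a set mean level. It held no array that deviates as a whole, as MS2 replicate 4 does. It therefore does not give the detection rate on the real arrays.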

Additional observations from a re-analysis of the deposited data

Results flagged for a closer look

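Each of 138 sets held the 5 arrays of 1 group for a gene or list. In 28 of them 1 array lay far from its nearest neighbour relative to the whole range. Independent normal values would give about 1 in 20. These sets share the same arrays and many of their genes were chosen from these data, so that rate is no reference here. MS2 replicate 4 was the far array in 16 of the 28. Its gap as a share of the range was 0.957 for Zeb2, 0.743 for Copg2as2, 0.907 for Pdzd2, 0.782 for ENSMUST00000106219, 0.784 for Col25a1, 0.771 for Mapk9, 0.838 for Rasl11a, 0.717 for Cdk17, 0.899 for Oprm1, 0.944 for Oprl1 and 0.91 for Fign. For the mean level of lists it was 0.918 for hippocampal principal neurons, 0.862 for hypothalamus and thalamus, 0.767 for the glucocorticoid response, 0.732 for the hypoxia response and 0.716 for immature neurons.

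Con replicate 19 was far from the other Con arrays for Gpnmb (0.758), Oprk1 (0.772), Penk (0.871), Fign (0.768), the opioid list (0.773) and the striatal list (0.925). MS2 replicate 5 was far from the other MS2 arrays for Pdyn (0.892) and the striatal list (0.863), and MS2 replicate 7 for Gpnmb (0.759). Con replicate 16 was far from the rest for AK157781 (0.711), Con replicate 17 for Pnoc (0.832) and Con replicate 18 for Rasl11a (0.851). The cause was not tested.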

How the results depend on the processing

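The 13 probes past the threshold became 230 with an offset of 0 (128 higher, 55.7%), 522 with the scanner's processed signal (359 higher), 9 within slide 1 and 293 within slide 2, where the second slide holds 2 arrays of each group. Leaving out each array in turn gave 7 to 38 probes, the latter without MS2 replicate 5 (10 of the 13 among them), 24 without Con replicate 15, 24 without MS2 replicate 1, 34 without MS2 replicate 3, 25 without MS2 replicate 7, 9 without MS2 replicate 4, 8 without Con replicate 19 and 7 without Con replicate 18. Averaged spots gave 13, array weights 9 (3 shared with the 13), the filter on dim probes 13, only Con and MS2 arrays 11 and the slide as a block 12. Without the 3 arrays that stood apart 8 were called, and without MS2 replicates 4 and 5 17. Among the 13 the share higher was 69.2%, and over all these settings it ranged from 37.2% within slide 2 to 77.8% without MS2 replicate 4. Adjusted p under 0.05 was met by 0 probes under every one of these alternatives, with the smallest adjusted p at 0.218 without MS2 replicate 5. Differences of named probes that passed p under 0.05 kept their direction under each of these settings. Of the results that passed p under 0.05, 17 no longer did so without MS2 replicate 4, 20 without Con replicate 19, 32 within slide 1 and 35 without the 3 arrays. The cause of these shifts was not tested. The paper states that treated pups shared a home cage with untreated littermates. No analysis paired by litter was possible, because the labels do not state the litter of each pup.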
